A study of Mus musculus with 2 samples.

Results

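Within the tetYAP library, 259 of 1524 cell barcodes (17.0%, exact binomial 95% interval 15.14 to 18.98%) formed a set of droplets that carried hepatocyte transcripts with a lower share of mitochondrial RNA. They were chosen by 4 limits on unique molecular identifiers (UMIs, each standing for 1 captured transcript). Genes of the mitochondrial genome (mt- genes) made up under 50% of the UMIs of the barcode. Malat1, a long RNA kept in the nucleus, had at most 19 UMIs. The summed UMIs of 12 genes of other liver cells (Ptprc, Coro1a, Laptm5, Csf1r, Cd3e, Cd79a, Nkg7, Kdr, Ptprb, Egfl7, Ramp2 and Dcn) were at most 3, and those of 4 haemoglobin genes (Hbb-bs, Hbb-bt, Hba-a1 and Hba-a2) were under 100. The series holds 4513 barcodes in all. Because the members were selected on their counts, every value of these genes in them is a description of the choice.

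The series profiled hepatocytes isolated by liver perfusion, with droplet sequencing of transcript 3′ ends. The tetYAP library came from an LaptTA;tetYAP mouse, in which the tetracycline transactivator under the liver-restricted LAP promoter drives a transgene for a constitutively active YAP that lacks an inhibitory phosphorylation site, after 4 weeks of induction by doxycycline withdrawal. The control library came from an LaptTA;WT mouse with the same transactivator and no YAP transgene, and both were on a C57BL/6 background. Each group is 1 library, so no comparison below has a replicate, none was tested, and all intervals are 95% intervals that cover counting error only.

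YAP is the coactivator that the Hippo kinases hold in the cytoplasm. The active form escapes this control, acts on DNA through TEAD factors and enlarges the liver. Hepatocytes make most plasma proteins at the rough endoplasmic reticulum and are rich in mitochondria. When such a large cell leaks or breaks, cytosolic RNA can be lost from it while mitochondria stay behind, and released transcripts are captured in droplets that hold other cells. A barcode with hepatocyte transcripts is therefore judged beside barcodes of cells that do not make them.

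Sequencing depth was modest. The members held a median of 3321 UMIs (2355 to 7301), of which 2139 (1376 to 6709) lay outside mt- genes, and a median of 1018 genes. The tetYAP library summed to 6777210 UMIs and the control library to 9509885, and no barcode sequence occurred in both. The libraries differed in sex. Xist, the X-inactivation RNA of females, had 531 UMIs in the members, where 4 genes of the Y chromosome (Uty, Kdm5d, Ddx3y and Eif2s3y) summed to 0. In control barcodes within the same 4 limits Xist had 3 UMIs and those 4 genes 609. Sex, animal, library and genotype cannot be told apart.

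The limit on mitochondrial RNA fell on a slope and not in a gap. Among the 751 tetYAP barcodes within the other 3 limits, 46 members held 45 to under 50% mt- UMIs, and 86 barcodes just outside held 50 to under 55%. Bins of 5 percentage points from 25 to 50% held 38 to 49 members each, and the peak of the library lay at 60 to under 65% with 130 barcodes. The 492 barcodes at 50% or more are called high-mt below. Levels near the limit were unequal from gene to gene. Neat1, a long nuclear RNA, stood at 215.6 counts-per-million (CPM, out of all UMIs outside mt- genes) just inside and 65.5 just outside, and Apob at 3185 and 4450 CPM. C3, the central complement protein, stood at 14159 CPM just inside and 17812 just outside, and the 14 hepatocyte markers at 483.0 and 447.6 UMIs per barcode. At the Malat1 limit, 12 members had 15 to 19 UMIs and 7 barcodes outside had 20 to 24, with Neat1 at 2333 and 1652 CPM. At the limit on 12 genes, 36 members had 3 UMIs and 34 barcodes outside had 4, with 14.03 and 22.2 macrophage marker UMIs per barcode. The haemoglobin limit left a gap, since no member held more than 3 such UMIs and the lowest barcode outside held 171.

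**Figure D1:**
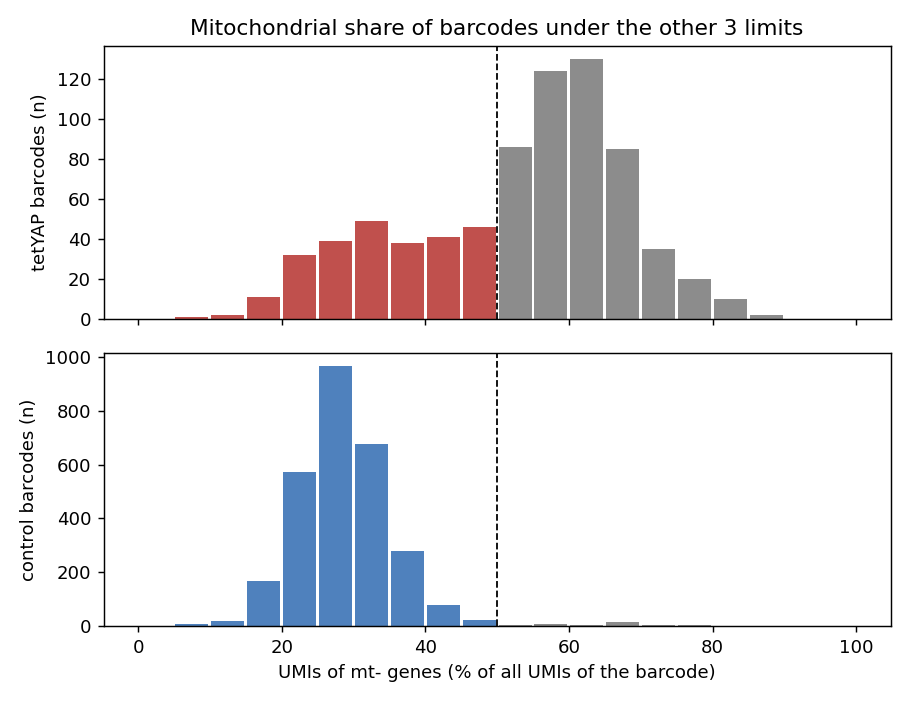
Number of barcodes (vertical axes) by the percent of UMIs from mt- genes (horizontal axis, bins of 5 percentage points) among barcodes within the other 3 limits, for the tetYAP library (top) and the control library (bottom). The dashed line is the limit of 50%. Members (red) spread below it with no gap at the line, the tetYAP peak of 130 barcodes lies at 60 to 65%, and the control peak of 964 barcodes lies at 25 to 30%.

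In absolute terms the members held a median of 1074 mt- UMIs, against 2561 in high-mt barcodes, 941 in erythroid barcodes and 869 in control barcodes within the same limits. Outside mt- genes members held more than high-mt barcodes, with medians of 2139 and 1642.5 UMIs. Between these sets the lower mitochondrial share went with both fewer mitochondrial and more other UMIs per barcode.

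The hepatocyte label was checked with 14 markers (Alb, Apoa1, Apoa2, Apoc1, Apoc3, Apoh, Ttr, Fgb, Fga, Trf, Ambp, Rbp4, Serpina1c and Tdo2). All 14 were detected, and together they gave 412.1 UMIs per barcode (409.6 to 414.5). Erythroid barcodes, the 36 tetYAP barcodes with 100 or more haemoglobin UMIs and at most 3 of the 12 genes, gave 306.8 (301.1 to 312.6), although red cell precursors do not make these transcripts. The 82 lymphoid barcodes of the library, with 3 or more UMIs of Cd3e, Cd79a and Nkg7 and none of Csf1r, Kdr, Ptprb, Egfl7, Ramp2 or Dcn, gave 335.5. The ratio of members to erythroid barcodes was 1.34. As a share of UMIs outside mt- and erythroid genes the order of members and erythroid barcodes turned, with 18.3% in members and 20.9% in erythroid barcodes. In lymphoid barcodes, where lymphocyte transcripts stay in that total, the share was 9.38%, below that of members. Of the members, 179 lay within the erythroid range of 218 to 451 marker UMIs, 79 above it and 1 below it.

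Counts of these markers therefore did not set most members apart from red cell barcodes. The share of barcodes within the erythroid range was 69.1% of members and 69.3% of high-mt barcodes, so this was not particular to the members. In control low-mt barcodes it was 87.5%. The range comes from the tetYAP library, so it does not measure released RNA in the control library. The data do not settle the label hepatocyte, and how much of the marker RNA was released RNA was not tested. The members are called low-mt barcodes from here on. The share above the erythroid range was 23.5% of the 85 members under 30% mt- UMIs, 19.5% of the 87 members at 30 to 40%, and 48.3% of the 87 members at 40 to 50%. The highest value was 1327 marker UMIs, in a member without markers of other cells.

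Some members carried RNA of other cells despite the limit on 12 genes. Markers of macrophages, the scavenger cells of the sinusoid (10 of 10 genes detected), gave 8.74 UMIs per member with a range of 0 to 97 and a median of 5. Erythroid barcodes gave 4.19 with a range of 0 to 21, and high-mt barcodes 4.01 with a range of 0 to 36. In 34 members the sum reached 15 or more, and these held 53.0% of the macrophage marker UMIs of the set. Endothelial markers (10 of 10 genes) ranged from 0 to 15 with 7 members at 10 or more. Among T or NK markers Cd3e and Trac were at 0, and among B cell markers Cd79a, Ms4a1 and Ebf1 were at 0. Stellate markers ranged from 0 to 6, and of the ductal markers Krt19 and Epcam were at 0.

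A few barcodes stood out one by one. In 3 members the monocyte or neutrophil markers summed to 157, 84 and 27 UMIs, and the first of them held 84 UMIs of S100a8 and 65 of S100a9, the subunits of calprotectin of neutrophils. In 1 member T or NK markers summed to 38, of which 35 were Ccl5, a chemokine of cytotoxic lymphocytes. Platelet genes, listed after the data were seen, summed to 132 in 1 member, with 50 UMIs of Ppbp. Pancreatic acinar enzyme genes, also listed afterwards, summed to 104 and 17 in 2 members, with 32 UMIs of Ctrb1, chymotrypsinogen, in the first. In all, 47 of 259 members held 15 or more macrophage marker UMIs or 10 or more UMIs of another of these lists. The other 212 are given beside the full set for some of the values that this moved. Cd74 and C1qb are among the macrophage markers that chose the 47, so their fall in the 212 follows in part from the choice. In ratios for the 212, the sets on the other side kept all their barcodes.

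**Figure D2:**
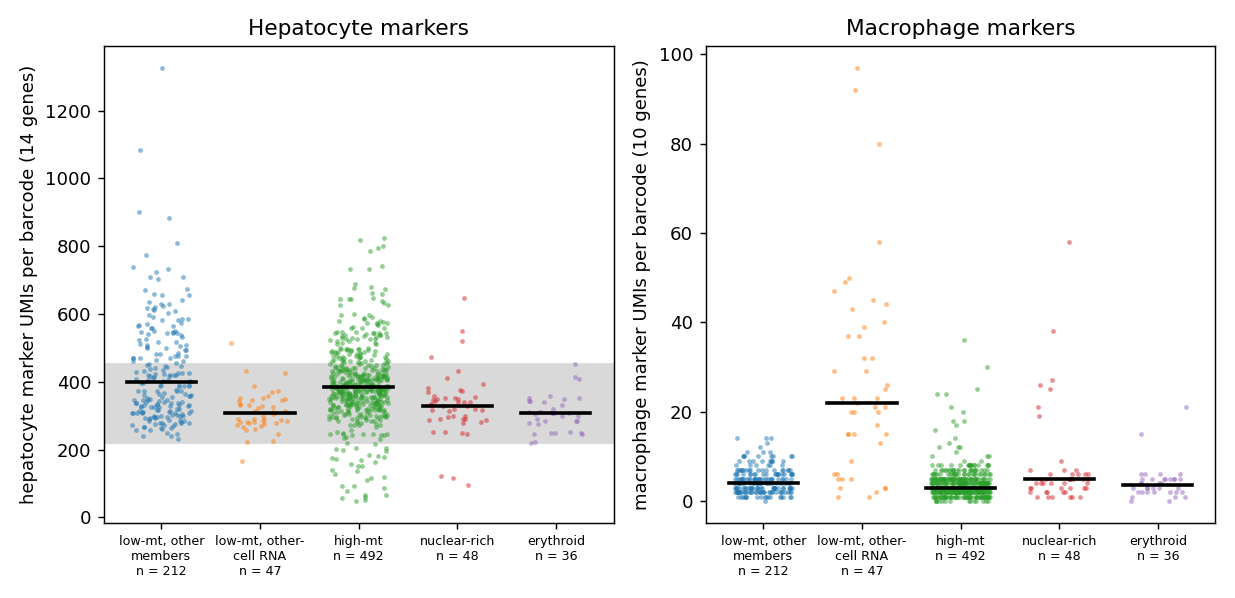
Summed UMIs per barcode of 14 hepatocyte markers (left) and 10 macrophage markers (right). Each point is a barcode, black bars are medians, the grey band is the erythroid range of 218 to 451, and members are split into 212 without and 47 with RNA of other cells. Most members lie inside the grey band, and the macrophage marker counts up to 97 belong to the 47.

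The 4 genes named as markers of the set were Lcn2, Gsta4, Gstm3 and Alb. Lcn2 (chromosome 2, 32384637 to 32387739 in GRCm38.p6) encodes lipocalin 2, an iron-siderophore carrier of the acute phase that neutrophils also store. It had 39 UMIs in members, in 31 barcodes (11.97%, 8.28 to 16.6%). It had 21 UMIs in high-mt barcodes (3.86% of them), 10 in 2797 control low-mt barcodes (0.358%) and 0 in 36 erythroid barcodes, where a floor of 3 counts allows up to 8.33% of barcodes with a UMI. Against high-mt barcodes the log2 ratio of CPM was 1.40 (0.60 to 2.24), and 1.39 without the 47 members with RNA of other cells. The neutrophil-marker member with 84 UMIs of S100a8 held 4 of the 39 UMIs. Thinned to 1000 UMIs outside mt- and erythroid genes, 4.25% of members (2.14 to 7.47%) kept an Lcn2 UMI and 2.33% of high-mt barcodes (1.17 to 4.12%), of which 19 were too shallow and left out. At this depth a difference from erythroid barcodes was not detectable.

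Gsta4 and Gstm3 encode glutathione transferases, which join electrophiles such as lipid aldehydes to glutathione. Gsta4 (chromosome 9, 78191966 to 78209349) had 72 UMIs in members, in 22.4% of barcodes (17.5 to 28.0%), against 16.7% of erythroid barcodes (6.37 to 32.8%) and 18.5% of control low-mt barcodes. Its log2 ratio was 0.77 (0.26 to 1.29) over high-mt and -0.10 (-1.22 to 1.26) over erythroid barcodes. Gstm3 (chromosome 3, 107963696 to 107969174) had 48 UMIs, in 13.9% of members (9.93 to 18.7%) and 8.33% of erythroid barcodes (1.75 to 22.5%). It stood 1.24 (0.54 to 1.95) on the log2 scale over high-mt barcodes, where it was seen in 5.89%. For both genes the intervals of members and erythroid barcodes overlapped, so expression above background was not detectable at this depth. Median depth outside mt- and erythroid genes was 2139 UMIs in members and 1416 in erythroid barcodes.

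Alb, serum albumin (chromosome 5, 90460870 to 90476602), was the most abundant transcript outside mt- genes. It gave 181.7 UMIs per member (180.0 to 183.3), 198.3 per high-mt barcode, 136.5 per erythroid barcode and 88.6 per control low-mt barcode. In CPM it was lower in members than in high-mt barcodes, by a log2 ratio of -0.54 (-0.56 to -0.53), and this turned to 0.25 when all UMIs, mt- genes included, were the denominator. Of the Lcn2, Gsta4 and Gstm3 UMIs of the whole tetYAP library, members held 35.1%, 28.2% and 38.4%, beside 14.5% of its UMIs outside mt- genes.

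The rest of the RNA outside mt- genes was dominated by plasma protein transcripts. The 10 most abundant genes made up 21.7% of these UMIs. After Alb (8.07%) came Apoe, the ligand for remnant uptake (3.82%), Apoa2 of high-density lipoprotein (2.32%), Trf, the iron carrier transferrin (1.64%), and Apoc1 (1.35%). Ttr, the thyroxine and retinol-binding carrier, C3, Fabp1, the fatty acid binding protein of hepatocytes, Apoa1 and Fgb, a fibrinogen chain, made up 0.651 to 1.30% each. In erythroid barcodes, outside mt- and erythroid genes, the same 10 genes each took a higher share, with Alb at 9.31%, Apoe at 4.21% and Fgb at 0.756%.

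Gene levels in members were compared with those in erythroid barcodes one by one. Of 140 genes with at least 50 UMIs in erythroid barcodes, outside mt- and erythroid genes, 126 stood within 0.5 on the log2 scale in members, 94 in high-mt barcodes, 40 in nuclear-rich barcodes (Malat1 at 20 UMIs or more, n = 48) and 10 in lymphoid barcodes. The median absolute log2 difference was 0.19 in members, 0.40 in high-mt, 0.69 in nuclear-rich and 1.18 in lymphoid barcodes. Lymphocyte transcripts stayed in the totals of lymphoid barcodes, which lowers the levels of all other genes there. How much of their difference this makes up was not tested. Pearson's r of log2 levels over these genes gave another order, with 0.763 in members, 0.736 in high-mt, 0.790 in nuclear-rich and 0.529 in lymphoid barcodes. The 140 genes share the same libraries, and the comparison was added after the data were seen. Over the 1660 genes with 50 UMIs in both sets together, 115 (6.93%) were at least 2-fold higher in members and 45 (2.71%) at least 2-fold lower. The median log2 ratio over all 1660 genes was 0.10, and trimmed-mean factors moved the counts to 198 and 32. Members summed to 582986 UMIs and erythroid barcodes to 52754, and erythroid counts under 3 were set to 3. Genes with few UMIs in members could therefore not be called higher, and the count of 115 was limited in part by this floor. All 14 hepatocyte markers lay between -0.32 and -0.03, and 0 of 33 plasma protein genes passed 2-fold in either direction.

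With a minimum of 200 UMIs over both sets, 5 of 428 genes were at least 2-fold higher in members than in erythroid barcodes and 3 at least 2-fold lower. Of the higher genes named here, 2 nuclear RNAs led. Neat1, the scaffold RNA of paraspeckles (chromosome 19, 5824708 to 5845480), had 212 UMIs in members and 4 in erythroid barcodes, a log2 ratio of 2.26 (0.88 to 4.15), and Xist had 531 and 16, a log2 ratio of 1.59 (0.87 to 2.40). H2afz, a histone variant, followed at 1.25 (0.30 to 2.39) and Actg1, an actin, at 1.20 (0.46 to 2.06). Cd74, the MHC class II chaperone, stood at 0.82 (0.05 to 1.71) and at -0.18 without the 47 members with RNA of other cells. The median of cytoskeleton genes was 0.50 over 19 measured, and 0.09 over 16 without the 47. Lower in members were Sec61g, a translocon subunit (-2.25, -2.56 to -1.93), Ubb, polyubiquitin B (-1.42, -1.72 to -1.11), and Oaz1, the ornithine decarboxylase antizyme (-1.16, -1.50 to -0.80). The next 7 lowest, from Cyp2c50 to Itih1, lay between -0.64 and -0.57. Genes below 200 UMIs reached further, and an example chosen after its values were seen is Bpgm, the bisphosphoglycerate mutase of red cells, at 12.01 CPM in members and 1327 in erythroid barcodes.

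**Figure D3:**
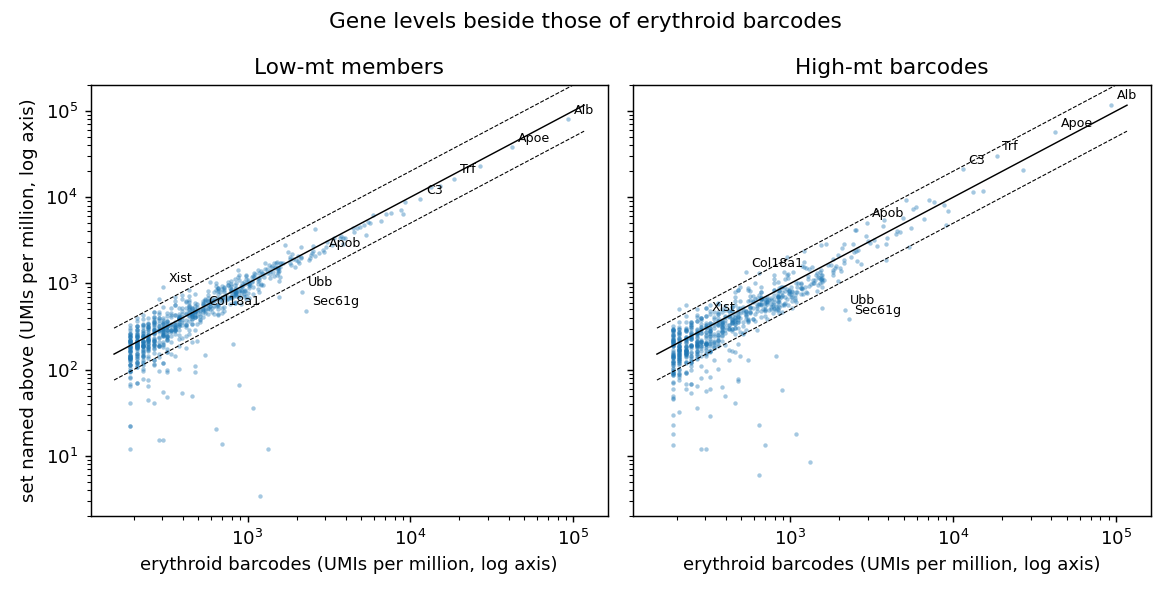
Level of each gene with at least 10 UMIs in erythroid barcodes (758 genes), as CPM outside mt- and erythroid genes on log axes, in members (left) and in high-mt barcodes (right) against erythroid barcodes. The solid line is equality, dashed lines are 2-fold, and genes under 2 CPM on the vertical axis are not shown. Abundant genes lie near the line in members, while C3, Trf and Apob sit above it in high-mt barcodes.

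Set beside the high-mt barcodes, members held relatively less RNA for plasma proteins. Levels are in CPM, and 3110 genes reached 50 UMIs over both sets, with a median log2 ratio of 0.28. Of these, 131 (4.21%) were at least 2-fold higher and 67 (2.15%) at least 2-fold lower. The split itself is the rule's, so these values describe it. They also depend on the scale. When all UMIs were the denominator the median of all genes moved by 0.79, and with trimmed-mean factors it moved by -0.34, and of the genes past 2-fold the share that was higher went from 66.2% to 99.9% and 14.7%. For this reason lists are read against the median of all genes.

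All 33 measured plasma protein genes lay below the median of all genes, and their own median was -0.44. Apob, the structural protein of very low density lipoprotein, passed 2-fold, with 1342 UMIs in members and 4211 in high-mt barcodes and a log2 ratio of -1.14 (-1.23 to -1.05). Trf stood at -0.89 (-0.92 to -0.85). At the other end of the list Apoc3 stood at 0.23 and Ttr at 0.19, both above 0 and still below the median of all genes. Of 23 acute phase genes 1 passed 2-fold in each direction, Lcn2 upward and C3 downward, and 22 lay below the median of all genes. C3 (chromosome 17, 57203967 to 57228136) gave 21.4 UMIs per member and 35.7 per high-mt barcode, a log2 ratio in CPM of -1.16 (-1.20 to -1.11). Haptoglobin, Hp, the haemoglobin scavenger, stood at -0.93 and the ferroxidase Cp at -0.88.

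Col18a1, a basement membrane collagen that hepatocytes secrete (chromosome 10, 77052178 to 77166530), had 284 UMIs in members and 1129 in high-mt barcodes and was the lowest of the genes with at least 200 UMIs at -1.48 (-1.67 to -1.29). The complement protease C1ra (-1.37), the matrix protein Spon2 (-1.36), the procollagen enhancer Pcolce (-1.33), the basement membrane protein Nid1 (-1.24), the receptor Plxnb2 (-1.20), the lipid transporter Abca3 and the inhibitor Timp2 (both -1.15) followed, besides C3 and Apob. Of 15 measured ER stress genes 12 lay below the median of all genes, with Hspa5, the chaperone BiP, at -0.40, and none passed 2-fold. Of 14 cholesterol synthesis genes Cyp51 passed 2-fold downward (-1.03).

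Higher in members were nuclear RNAs and genes of mixed function. Neat1 led at 1.55 (1.21 to 1.91), with 212 UMIs against 103, followed by Atpif1, the inhibitor of mitochondrial ATP synthase, at 1.21, Xist at 1.13, Fabp4, a fatty acid binding protein of adipocytes and endothelium, at 1.10, the nucleolar protein Npm1 at 1.02 and Tma7, a small ribosome-associated protein, at 1.001. Nop10, Cd74, Ybx1 and Gnas made up the rest of the 10, at 0.95 to 0.996. The 24 members with 10 to 19 Malat1 UMIs held 48.6% of the Neat1 and 51.6% of the Xist UMIs of the set. In the 193 members with 0 to 4, Neat1 stood at 171.4 CPM and Xist at 284.1. High-mt barcodes at 50 to 60% mt- UMIs, not split by Malat1, held 80.4 and 324.2 CPM. Cd74 stood at -0.01 without the 47 members with RNA of other cells. It is 1 of the macrophage markers that chose them, so this fall was set in part by the choice. In members under 30, at 30 to 40 and at 40 to 50% mt- UMIs, Atpif1 stood at 274.4, 271.0 and 241.6 CPM. Without members with RNA of other cells it stood lower, at 193.8, 248.7 and 217.2. Of 17 glutathione transferases 2 passed 2-fold, Gstm6 (1.34, 0.68 to 2.02) and Gstm3, and 11 lay above the median of all genes. Genes of the cytosolic metabolic enzymes (median 0.35 over 28) and of nuclear-encoded oxidative phosphorylation (median 0.36 over 42) stayed near it, and none of either list passed 2-fold.

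Cytoskeleton and macrophage genes stood lower when the 47 members with RNA of other cells were left out. Over 21 cytoskeleton genes the median was 0.69, and 0.44 without the 47 members. Tmsb4x, an actin-sequestering peptide abundant in leukocytes, had a log2 ratio of 0.81 (0.72 to 0.89) in all members and -0.01 (-0.11 to 0.10) in the other 212. The 8 measured macrophage markers had a median of 0.72 in all members and -0.12 in the 212. Part of that fall was fixed in advance, since sums of macrophage markers helped choose the 47. High-mt barcodes were not filtered in these ratios, and 11 of them held 15 or more macrophage marker UMIs. In high-mt barcodes at 50 to 60% mt- UMIs, Tmsb4x also fell, from 2604 to 2453 CPM, when barcodes with RNA of other cells were left out. All 10 endothelial markers together gave 1.68 UMIs per member, 1.57 in the 212 and 0.654 per high-mt barcode.

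**Figure D4:**
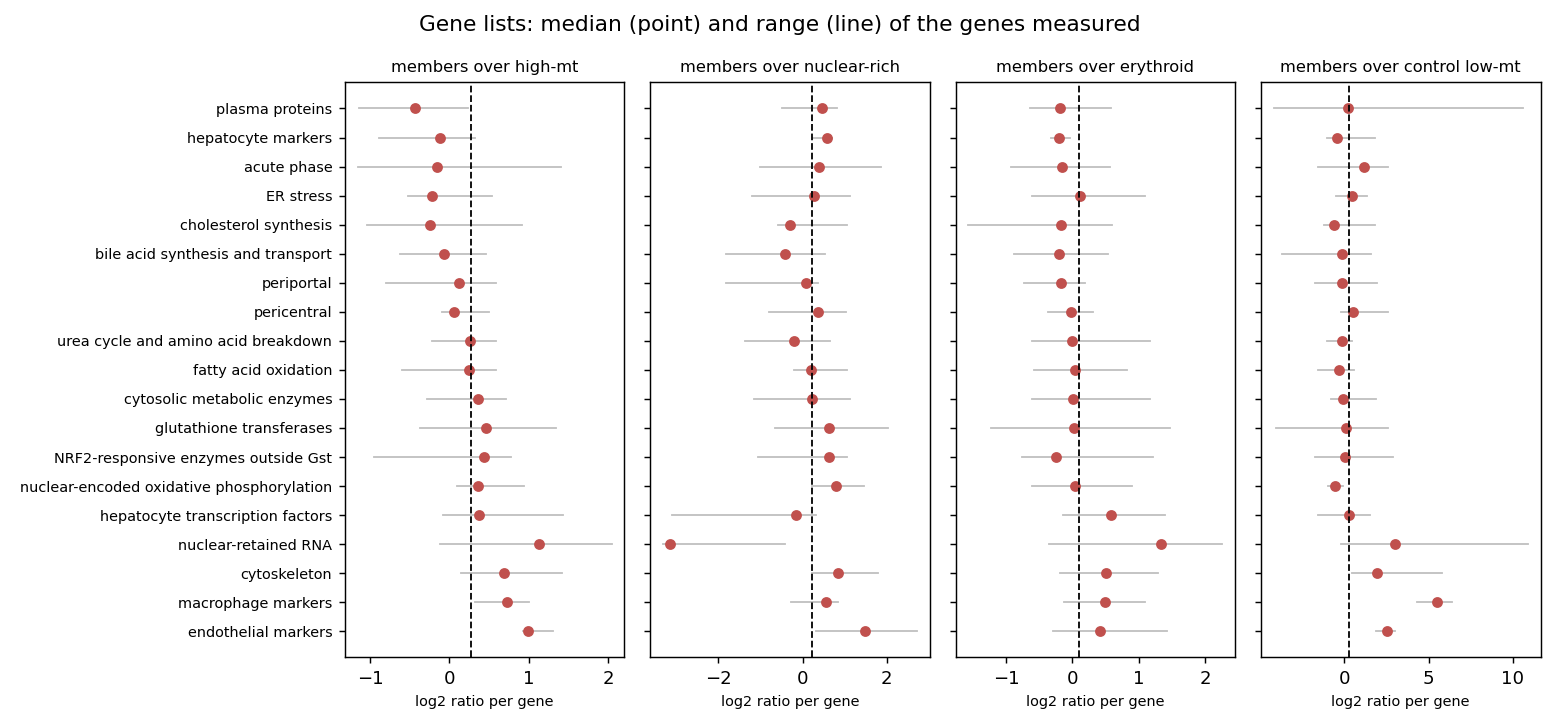
Log2 ratio of members over high-mt, nuclear-rich, erythroid and control low-mt barcodes (horizontal axes) for 19 gene lists. Points are medians over the genes measured, grey lines run from the lowest to the highest gene, the dashed line is the median of all genes measured, and lists with under 3 measured genes in a comparison are left out. Plasma proteins lie left of the dashed line against high-mt barcodes, and all of the 19 but nuclear-retained RNA lie within 0.5 of it against erythroid barcodes.

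The same genes graded with mitochondrial share inside the set. C3 stood at 6880.2 CPM (6528 to 7246) in the 85 members under 30% mt- UMIs, at 8616 (8193 to 9055) in the 87 at 30 to 40%, and at 13098 (12595 to 13617) in the 87 at 40 to 50%. The series went on beyond the limit, to 19103 in high-mt barcodes at 50 to 60% and 22960 at 60% or more. Apob went in the same order from 1704 to 2417 and 2833 CPM, and Col18a1 from 322.6 to 425.8 and 719.7. Alb went from 68677 to 75376 and 98500 and Apoe from 32547 to 37185 and 45161. For each of these 5 genes the counting intervals of the lowest and the highest band did not overlap.

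Other genes did not grade in this way or did so less. Gstm1, the main hepatic Mu-class transferase, went from 1676 CPM (1504 to 1861) to 1222 and 1059 (919.3 to 1214) across the bands. The nucleolar Npm1 stood at 284.1, 282.0 and 179.9, with overlapping intervals. Ttr stood at 14011, 12227 and 12636. Apoa1 stood at 6938 (6584 to 7306), 6774 and 7855 (7466 to 8259), higher in the last band by less than the 5 genes above. Summed plasma protein transcripts were 21.9, 22.9 and 28.0% of UMIs outside mt- genes, against 32.3% and 32.6% in the high-mt bands. Members with RNA of other cells made up 10.6, 24.1 and 19.5% of the bands, and without them C3 stood at 6951, 8932 and 13775.

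**Figure D5:**
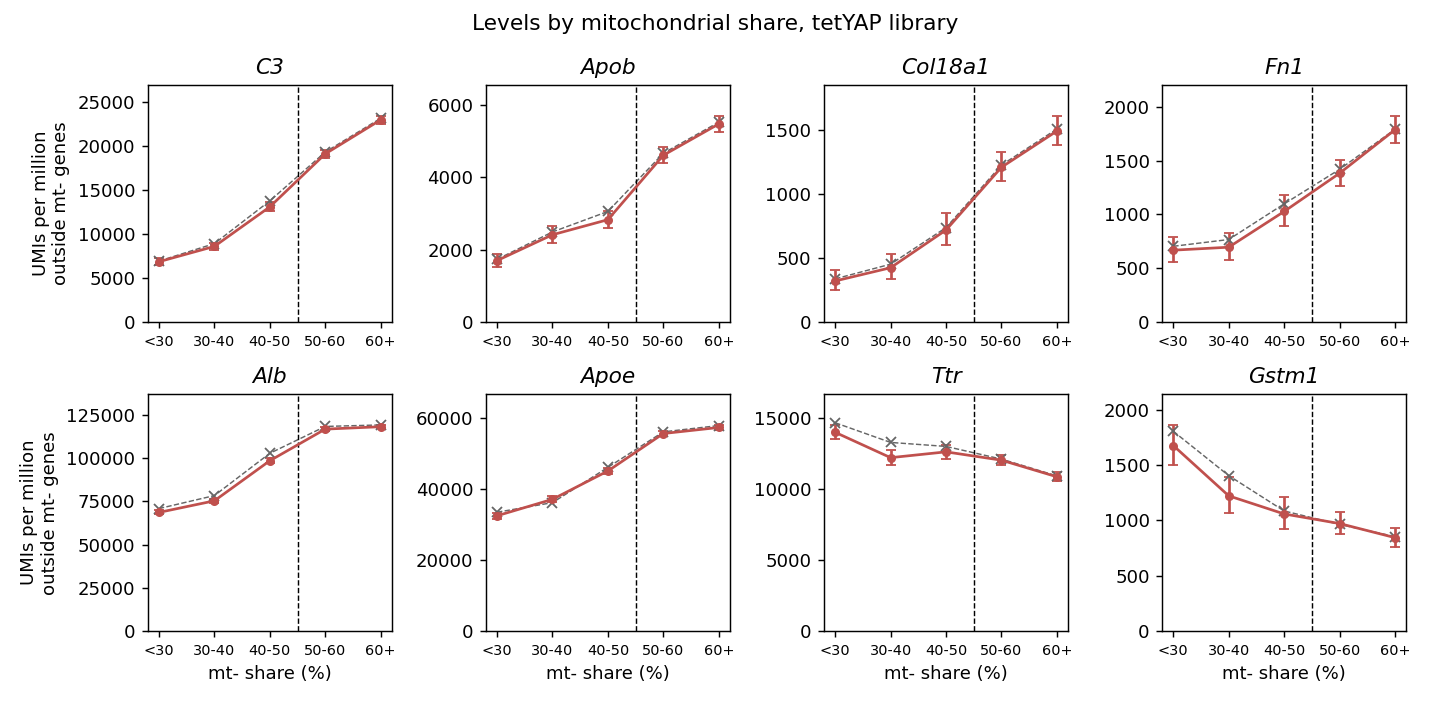
Level of 8 genes (CPM outside mt- genes) in bands of mitochondrial share, with the bands right of the dashed line holding high-mt barcodes. Red points are all barcodes with exact Poisson 95% intervals, and grey crosses leave out barcodes with RNA of other cells. C3, Apob, Col18a1, Fn1, Alb and Apoe climb across the limit, while Ttr and Gstm1 end lower than they start.

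The nuclear-rich barcodes of the same library, the 48 with 20 or more Malat1 UMIs, were the other neighbour. Over 1941 genes 218 (11.2%) were at least 2-fold higher in members and 283 (14.6%) at least 2-fold lower, with a median log2 ratio of 0.22 that trimmed-mean factors moved by 0.55, to 753 higher and 159 lower genes. Malat1 chose both sets, so lower nuclear RNA in members was set in part by the rule. Of 5 measured nuclear-retained RNAs 4 passed 2-fold downward. Xist gave 910.7 CPM in members and 9085 in nuclear-rich barcodes (-3.32), and Neat1 363.6 and 3214 (-3.14). Luc7l2, a splicing factor gene, was lowest at -3.35 (-3.73 to -2.97). Mlxipl, the carbohydrate response factor ChREBP, stood at -3.00, Clec2d at -2.68, Zbtb20 at -2.19 and the amino acid transporter Slc38a3 at -2.16. Of 11 hepatocyte transcription factor genes 5 passed 2-fold downward, among them Nr1i3 (-3.11) and Onecut2 (-2.61), while Hnf4a stood at 0.32.

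Transcripts for oxidative phosphorylation and the hepatocyte markers were relatively higher in members than in nuclear-rich barcodes. All 42 measured nuclear-encoded oxidative phosphorylation genes lay above the median of all genes, and 7 passed 2-fold, with Cox6b1 at 1.46 (0.91 to 2.06) and Cox5a at 1.35. Gstm1 stood at 1.38 (1.02 to 1.77), the redox enzyme Prdx5 at 1.47, the G protein subunit Gnas at 1.51 and Mup9, a major urinary protein with near-identical copies whose reads cannot be assigned with certainty, at 1.62. The 14 hepatocyte markers all lay above the median of all genes, with their own median at 0.57.

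Nuclear RNA was also uneven among the members. The 24 members with 10 to 19 Malat1 UMIs made up 9.27% of the set but held 48.6% of its Neat1 UMIs, 51.6% of its Xist UMIs, 58.6% of its Mlxipl UMIs and 51.7% of those of Chka, choline kinase. In the 193 members with 0 to 4 Malat1 UMIs, Neat1 stood at 171.4 CPM (134.4 to 215.5), Xist at 284.1 and Mlxipl at 39.9. In the 24 they stood at 1810 (1477 to 2195), 4815 and 896.2. Alb was lower in the 24, at 62928 CPM against 82221, and Gstm1 stood at 1019 and 1381 with overlapping intervals. Median depth was 2188 and 2084 UMIs outside mt- genes and median mt- share 31.6 and 33.7%, so depth and mitochondrial share were close. In erythroid barcodes Xist stood at 303.3 CPM outside mt- and erythroid genes, beside the 284.1 of the 193 members and the 9085 of nuclear-rich barcodes.

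Against the control low-mt barcodes, 1312 of 6864 genes (19.1%) were at least 2-fold higher in members and 247 (3.6%) at least 2-fold lower, with a median log2 ratio of 0.30. Trimmed-mean factors moved this median by -0.63 and turned the counts to 475 and 1166, so which direction prevailed depended on the scale. Genes known for sex-biased levels were at both ends. Xist, with 531 UMIs against 3, was among the 10 highest at a log2 ratio of 10.89. Female-biased A1bg, Sult2a2, Sult2a1 and Cyp2c69 were among the 10 highest, at 438, 299, 303 and 286 UMIs against 3, 4, 5 and 10. The 10 lowest genes are known for male-biased levels, led by Mup11 with 10 UMIs against 29256, with Mup21, Mup20, Mup1, Elovl3, an elongase of very long fatty acids, and the steroid enzyme Hsd3b5 among them. Values of single Mup genes are uncertain because their copies are near-identical.

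Macrophage genes were also among the 10 highest. C1qb, a complement subunit of macrophages, had 367 UMIs against 46, a log2 ratio of 6.42 (5.97 to 6.89) and of 5.33 without the 47 members. All 10 macrophage markers together gave 8.74 UMIs per member, 4.72 without the 47 and 0.199 per control low-mt barcode. Lyz2, Tyrobp, Fcer1g and Ifi27l2a completed the 10 highest. These transcripts were also present in the erythroid barcodes of the tetYAP library, where C1qb stood at 360.2 CPM outside mt- and erythroid genes, beside 629.4 in members and 7.38 in control low-mt barcodes.

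For acute phase genes, 0 of 21 measured passed 2-fold between members and erythroid barcodes, beside 6.93% higher and 2.71% lower of all genes. With a minimum of 200 UMIs 5 of 428 genes were higher and 3 lower, so the 0 of 21 does not set this list apart. Of 23 acute phase genes 12 were at least 2-fold higher than in control low-mt barcodes and 1 was lower. Over all genes these shares were 19.1% and 3.6%, and with a minimum of 200 UMIs 249 of 3013 genes were higher and 130 lower. C3 stood at 9493 CPM in members, 11506 in erythroid barcodes and 2511 in control low-mt barcodes. Saa2, serum amyloid A, stood at 135.5, 151.6 and 22.1, and Cp at 2262, 2502 and 644.9. Hamp2, a hepcidin, stood at 1406, 1554 and 44.9 CPM, while Hamp, the main hepcidin, was lower than in control (3365, 3943 and 9895). Mt1, a metallothionein, stood at 603.7, 834.1 and 54.2. Of 13 iron and metallothionein genes 8 were measured against erythroid barcodes, with a median of -0.47 and 1 at least 2-fold lower, and Ftl1, the ferritin light chain, stood at -0.48 (-0.62 to -0.34) and Fth1, the heavy chain, at -0.55 (-0.73 to -0.36).

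Genes linked to YAP were sparse. Of 18 YAP target genes 4 reached 50 UMIs over both sets, Amotl2, Crim1, Lats2 and Tead1. A gene can reach that minimum through the members alone, so values are given and no tally is read. Amotl2, a Hippo pathway scaffold, had 50 UMIs in members (85.8 CPM) and 58 in control (9.30 CPM), a log2 ratio of 3.20 (2.63 to 3.78). The kinase gene Lats2 had 15 and 44 UMIs (1.87, 0.91 to 2.74), and Crim1, a transmembrane protein gene, 21 and 33 (2.77, 1.90 to 3.60). Outside that list, Csf1, the macrophage growth factor, had 71 and 14 UMIs, a log2 ratio of 5.76 (4.92 to 6.70), and Spp1, osteopontin, 87 and 42 (4.47, 3.92 to 5.04). In erythroid barcodes Csf1 was seen in 13.9% (4.67 to 29.5%) and Spp1 in 19.4% (8.19 to 36.0%), beside 20.5% and 26.3% of members, and the intervals overlapped. In high-mt barcodes, Csf1 stood at 184.2 CPM and Spp1 at 275.8, against 121.8 and 149.2 in members. Of 13 fetal liver genes 2 reached 50 UMIs, Gpc3 and Peg3. Gpc3, a fetal liver glypican, had 55 UMIs against 1, at 94.3 CPM in members and 94.8 in erythroid barcodes. Tead1, a DNA-binding partner of YAP, had 35 UMIs in members, 2 in erythroid barcodes and 17 in control low-mt barcodes. Afp, the fetal albumin, had 0 UMIs in members, where the same floor allows up to 1.16% of barcodes with a UMI.

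Of 21 glutathione transferases measured 3 were at least 2-fold higher, beside 19.1% of all genes, and 2 at least 2-fold lower than in control low-mt barcodes. Gstm2 (2.61, 2.16 to 3.05) and Gstm3 (1.51, 1.02 to 1.98) were among the higher, and Gstp1, the male-biased Pi-class enzyme, was lowest at -4.08 (-4.34 to -3.82). Gsta4 stood at 0.45 (0.08 to 0.81), which trimmed-mean factors turned below 0. Lists of metabolic genes of hepatocytes differed. All 42 oxidative phosphorylation genes lay below the median of all genes, and none passed 2-fold. Fatty acid oxidation had a median of -0.33 over 20 genes and cholesterol synthesis -0.58 over 20. Cytosolic metabolic enzymes had a median of -0.09 over 29 genes and the pericentral list 0.49 over 16, against 0.30 over all genes. Fabp1 stood at 8737 CPM against 26156, and the tryptophan enzyme Tdo2 at 663.7 against 1349.

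Spread between members was close to counting noise for most genes. After thinning 254 members to 1500 UMIs outside mt- genes, the ratio of variance to mean, which is 1 for counting noise alone, had a median of 1.04 over 3631 genes with a mean of at least 0.05. It reached 2 in 65 genes, and in 27 of 3577 among members without RNA of other cells. The 10 highest were S100a8 (47.8), S100a9, Ppbp, Ctrb1, Pf4, Prss2, Ccl5, Tmsb4x, Cela2a and Alb (10.1). All but Tmsb4x and Alb were seen in 2 to 8 of the thinned members, and S100a8 had 68.1% of its thinned UMIs in 1 of them. Among members without RNA of other cells the highest were Alb (10.02), Xist (7.72), Trf (4.88), Apoe (4.87), Neat1 (4.54), Fabp4 (3.96) and C3 (3.71). Thinned Alb counts had a 10th percentile of 83.3, a median of 117 and a 90th percentile of 162.4. Lcn2, Gsta4 and Gstm3 had ratios of 1.35, 1.23 and 1.10.

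A split by genes of lobular position gave small differences. Hepatocytes near the portal vein use Cyp2f2 and those near the central vein Cyp2e1. The 249 members with a UMI of either were split into 3 equal groups by the share of Cyp2f2, which was 0 in 119 of them. The other 16 pericentral genes summed to 6206 CPM (5858 to 6570) in the group with least Cyp2f2 and 5528 (5191 to 5882) in that with most. The other 17 periportal genes summed to 5668 (5335 to 6015) and 6756 (6382 to 7145). The middle group, 36 of whose 83 members had no Cyp2f2, gave 6273 for pericentral and 6038 for periportal genes. Both differences between the outer groups ran in the direction of the zones, and both were small. Cyp2f2 had a mean of 0.492 UMIs per thinned member, so the split is coarse and cannot show how strongly members were zoned. In control low-mt barcodes the same split gave 4441 and 4076 for pericentral and 6363 and 6654 for periportal genes, which also differ by little.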

How the data were processed

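Hepatocytes perfused from 1 control and 1 tetYAP mouse were profiled by droplet RNA sequencing. The authors aligned reads to mm10 with Cell Ranger, used Seurat 3 for filtering, and deposited raw UMI counts per gene and barcode (31053 genes). The methods state 3000 cells per library and at most 7500 UMIs, and the files held 1476 (tetYAP) and 11 (control) barcodes fewer than 3000 and none over 7500. The labels name v2 and v3 kits, and the methods give v3 for perfused liver. Per the labels, groups are the 2 genotypes.

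Members and lists were chosen with earlier results of these data known. No doublet caller was run here. UMIs were summed over a set and given as counts-per-million (CPM) of the UMIs outside the 13 mt- genes, outside haemoglobin, Alas2 and Slc4a1 too where erythroid barcodes enter. Genes with 50 UMIs over both sets were measured, counts under 3 were set to a floor of 3, and log2 ratios carry exact conditional binomial 95% intervals, levels exact Poisson and shares Clopper-Pearson ones. The most that a count of 0 allows is given as 3 counts of the total. No test was made, since each group is 1 library. A gene is counted as higher or lower past 2-fold by size alone. Named were the 10 genes furthest each way with at least 200 UMIs over both sets, the 10 with the highest ratio of variance to mean among members, the 10 most abundant genes, the 4 markers and listed genes, leaving out ribosomal protein, predicted and limit-setting genes. The erythroid comparison, the platelet and acinar lists and the set without RNA of other cells were added after seeing the data. Code was tested on simulated counts. Python 3.11.15, numpy 2.4.6, scipy 1.17.1, pandas 2.3.3, R 4.3.3 and, for trimmed-mean (TMM) factors only, edgeR 4.0.16 were used. Positions come from RefSeq on GRCm38.p6.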

Additional observations from a re-analysis of the deposited data

How the results depend on the processing

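No paired analysis was possible because each group has 1 library. Barcodes are not replicates, and intervals leave out variation between animals. The number of members, 259, was 85 with mt- share under 30%, 172 under 40% and 165 with at most 1 UMI of the 12 genes. The other settings kept it within 1.5 times, and 1040 of 1176 values of single genes and lists stayed within their intervals and 136 moved beyond them. Values under 2-fold could change sign with the denominator, as did Alb over high-mt barcodes with all UMIs and Gsta4 over control low-mt barcodes with TMM factors. The causes of these moves were not tested.

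Counts of genes past 2-fold depended on the denominator and on the UMI minimum. Over high-mt barcodes, 131 higher and 67 lower genes became 1737 and 2 with all UMIs as denominator, 59 and 138 without the 50 most abundant genes in the totals, and 39 and 226 with TMM factors. The lower genes numbered 156 with mt- share under 30% and 116 under 40%, and the higher ones 75 with at most 1 UMI of the 12 genes. A minimum of 20 UMIs gave 581 and 146, and of 200 UMIs 6 and 16. The share of higher genes among those past 2-fold went from 66.2% to 29.9% without the most abundant genes.

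Over nuclear-rich barcodes, 218 higher and 283 lower genes became 753 and 159 with TMM factors, which moved the share of higher genes from 43.5% to 82.6%. The higher genes numbered 348 without the most abundant genes (59.6%). They became 133 and 128 with mt- share under 30%, 348 and 1044 with a minimum of 20 UMIs and 50 and 23 with 200, and 151 were lower with at most 1 UMI of the 12 genes.

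Over control low-mt barcodes, 1312 and 247 became 475 and 1166 with TMM factors (share of higher genes 84.2% to 28.9%), and 383 were lower without the most abundant genes (71.7%). A minimum of 20 UMIs gave 2424 higher genes and left 247 lower, and of 200 UMIs 249 higher and 130 lower.

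Over erythroid barcodes, with all alternatives added after seeing the data, 115 higher genes became 208 with all UMIs (share of higher genes 71.9% to 87.0%), 198 with TMM factors (86.1%), 43 with mt- share under 30% and 5 with a minimum of 200 UMIs. The 45 lower genes became 12 with mt- share under 30%, 201 with a minimum of 20 UMIs and 3 with 200. The higher genes stayed at 115 with a minimum of 20 UMIs, since the floor of 3 keeps genes with few UMIs from being called higher. Without the most abundant genes the share of higher genes was 60.5%.

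The 65 genes with a ratio of variance to mean of 2 or more became 39 when thinned to 1000 UMIs and 27 without the 47 members with RNA of other cells. Barcodes weighted equally, an offset of 0.5 UMIs and at most 10 Malat1 UMIs kept every count of genes past 2-fold within 1.5 times.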

Other observations

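Ribosomal protein genes formed a further group. They took 7.86% of UMIs outside mt- genes in the low-mt barcodes and 5.18% in high-mt barcodes. The median log2 ratio over 81 of them was 0.59, and none passed 2-fold. Over nuclear-rich barcodes 23 of 80 were at least 2-fold higher, beside 11.2% of all genes, with a median of 0.87. Over erythroid barcodes none of 80 was, beside 6.93% of all genes and 5 of the 428 genes with at least 200 UMIs, with a median of 0.19. Yap1 itself had 30 UMIs in members and 140 in control low-mt barcodes, a log2 ratio of 1.20 (0.58 to 1.77), and whether reads of the transgene are counted under Yap1 was not tested. Igf1, the liver hormone of growth, had 550 and 6346 UMIs, a log2 ratio of -0.11 (-0.24 to 0.02).

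Fabp4 was uneven among members in the opposite way to nuclear RNA. The 193 members with 0 to 4 Malat1 UMIs held 89.8% of its UMIs, at 309.9 CPM (259.3 to 367.6), against 52.7 (10.9 to 154.1) in the 24 with 10 to 19 Malat1 UMIs.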
